A study of Mus musculus with 7 samples.

Results

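The 8 genes described here encode the core of MHC class II antigen presentation in the mouse: H2-Aa, H2-Ab1, H2-Eb1, H2-DMa, H2-DMb1, H2-DMb2, Cd74 and Ciita. They were selected by gene symbol from the 23361 genes quantified, and all 8 have a value in all 7 libraries. They were chosen on values from these same libraries, in which they were higher at the later days, so their levels and differences are given as a description and nothing is read from their calls. Macrophages were sorted from the tissue bridge that formed inside a conduit after the left sciatic nerve of wild-type BALB/cJ mice was cut and immediately repaired. No uninjured nerve is among the libraries, and every group shares the transection, the conduit repair, the strain and the sorting gate. The groups differ in time after repair: day 5 (3 libraries), day 14 (2 libraries) and day 28 (2 libraries). Cells were taken by flow cytometry as positive for F4/80, CD14, CD11b and CD16/32 and negative for markers of other lineages. The age and sex of these mice, and whether a library holds 1 mouse or a pool, are not given in the sources used here, so p-values measure the spread between these libraries.

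MHC class II molecules carry peptides from proteins taken up by the cell to its surface, where CD4 T cells read them. An alpha and a beta chain pair in the endoplasmic reticulum, where the invariant chain Cd74 fills the groove and guides the complex to endosomes. There proteases cut the invariant chain, and H2-M, made of H2-DMa and an H2-DMb chain, removes its last fragment and edits which peptide stays bound. Ciita does not bind DNA on its own but assembles on factors already seated on the promoters of these genes, and its own level is known as the main control point of the set. Dendritic cells and B cells express class II constitutively, whereas in macrophages interferon gamma is the classical inducer.

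Of the 8 genes, 6 lie in the class II segment of chromosome 17, on build GRCm38 in the GENCODE annotation. H2-DMa (chr17:34119541-34139101), H2-DMb2 (chr17:34143307-34151555) and H2-DMb1 (chr17:34153072-34160230) follow each other on the plus strand. H2-Ab1 (chr17:34257689-34269419) and H2-Eb1 (chr17:34305867-34316674) are also on the plus strand, while H2-Aa (chr17:34282744-34287823) is on the minus strand between them. Ciita is on chromosome 16 (chr16:10480059-10528418, plus strand) and Cd74 is on a chromosome of its own.

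Class II promoters are known for a shared X box, bound by the RFX complex and CREB, followed by a Y box, bound by NF-Y, and Ciita docks on these proteins. RefSeq promoter windows (build GRCm38.p6, 250 bases before to 50 after a start site) were matched for 8 of the 12 class II genes looked up, the 8 above and H2-Ea-ps, H2-Eb2, H2-Oa and H2-Ob, with 9 windows in all since H2-DMa has 2. Stretches of 90 bases around the Y box are shown for the 4 of the 8 genes that have one in a matched window, and for H2-Eb2 and H2-Ob, which are neighbours in the segment with far lower levels. Each is written 5′ to 3′ in the direction of the gene, with matches to the motifs in capitals. H2-Aa is at chr17:34287844-34287933 on the minus strand. On the plus strand, H2-Eb1 is at chr17:34305746-34305835, H2-DMb1 at chr17:34153068-34153157, H2-DMb2 at chr17:34145097-34145186, H2-Eb2 at chr17:34325513-34325602 and H2-Ob at chr17:34238786-34238875.
H2-Aa: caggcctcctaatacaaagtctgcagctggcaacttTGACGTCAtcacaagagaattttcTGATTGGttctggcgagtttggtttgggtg
H2-Eb1: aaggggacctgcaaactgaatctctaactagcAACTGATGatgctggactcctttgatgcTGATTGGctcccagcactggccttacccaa
H2-DMb1: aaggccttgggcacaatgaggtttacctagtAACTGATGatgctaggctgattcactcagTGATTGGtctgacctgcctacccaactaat
H2-DMb2: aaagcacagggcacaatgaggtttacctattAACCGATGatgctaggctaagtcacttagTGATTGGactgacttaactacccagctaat
H2-Eb2: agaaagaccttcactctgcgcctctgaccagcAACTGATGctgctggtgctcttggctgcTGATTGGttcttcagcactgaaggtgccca
H2-Ob: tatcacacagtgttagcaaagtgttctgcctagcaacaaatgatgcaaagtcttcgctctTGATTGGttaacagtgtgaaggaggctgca

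Motifs known from class II promoters were searched on both strands, chosen with these sequences in view, and no matches in these windows overlapped. The Y box core TGATTGG was in 7 of the 9 class II windows and in 7.82% of all 32851 windows. Counting the RefSeq start as position 0, its first base was at -50 in H2-Aa, -61 in H2-Eb1, -63 in H2-DMb1 and -92 in H2-DMb2. For H2-DMb1 and H2-DMb2 the RefSeq start used lies downstream of the GENCODE gene start given above. The X box core AACNGATG was in 4 of the 9 and in 2.32% of all windows. It began 28 bases before the Y box core in H2-Eb1 and H2-Eb2 and 29 bases before it in H2-DMb1 and H2-DMb2. An X box core 20 to 40 bases before a Y box core on the sense strand was found in 5 of all windows (0.0152%), and 4 of these were the class II genes just named. H2-Aa has no match to that X box core but a cyclic AMP response element, TGACGTCA, from position -74, a motif in 1.79% of all windows. The motif pair was thus shared by genes of very different level: H2-Eb2 carries it and was at 0 fragments in 6 libraries and 3 in the other. The reference is C57BL/6J, and the promoters of BALB/cJ were not analysed here.

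Between 18027190 and 35247116 fragments were assigned to genes per library, and 13209 to 14047 genes had more than 3 fragments. Differences within a day exceeded counting error, with chi-square per degree of freedom from 15.5 to 21.7 for pairs from day 5, 62.0 for the day 14 pair and 47.1 for the day 28 pair, and each library was taken as a sample of its own. Levels are FPKM, fragments scaled to transcript length and library size, which allow genes to be compared per length. Differences are log2 differences with their standard errors (SE) from an edgeR fit of all 7 libraries to the fragments, and a gene was called where the Benjamini-Hochberg adjusted p was under 0.05 over the 12858 genes tested. Reads of BALB/cJ, which carries the H-2d haplotype, were mapped to a reference of the H-2b haplotype, so fragments from the polymorphic class II chains can be undercounted. All 7 libraries come from this strain. In bulk RNA, more cells that express a gene and more RNA of it per cell cannot be told apart.

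Ciita, the class II transactivator, was the lowest of the 8 in level and had the largest log2 difference of days 14 and 28 from day 5. Its level was 2.11, 2.49 and 1.82 FPKM in the day 5 libraries, 7.56 and 6.43 at day 14, and 7.77 and 8.84 at day 28. Every library of days 14 and 28 lay above every library of day 5, and the day 28 libraries lay just above those of day 14. The mean was 2.14 ± 0.333 FPKM (SD, n = 3) at day 5, 6.99 ± 0.801 (n = 2) at day 14 and 8.30 ± 0.756 (n = 2) at day 28. The log2 difference was 1.72 ± 0.155 (SE) between days 14 and 5, 0.24 ± 0.167 between days 28 and 14, and 1.96 ± 0.154 between days 28 and 5, the last a 3.88-fold difference. These values rest on 203 to 1526 fragments per library.

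The I-A molecule is built from the H2-Aa alpha chain and the H2-Ab1 beta chain. H2-Aa was at 253.6, 226.0 and 184.1 FPKM at day 5, 566 and 326.1 at day 14, and 587 and 577 at day 28. The day 28 libraries were close together and above both day 14 libraries, which in turn were above all of day 5. H2-Ab1 was at 244.9, 229.0 and 183.7 FPKM at day 5, 552.9 and 326.0 at day 14, and 485.4 and 621.8 at day 28. Here days 14 and 28 overlapped, since day 14 replicate 1 exceeded day 28 replicate 1. The log2 difference between days 14 and 5 was 1.02 ± 0.215 (SE) for H2-Aa and 1.01 ± 0.219 for H2-Ab1. Between days 28 and 5 it was 1.41 ± 0.215 and 1.35 ± 0.219, or 2.65-fold and 2.55-fold.

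H2-Eb1 encodes the beta chain of the I-E molecule, the second classical class II product. Its level was 209.8, 194.1 and 158.0 FPKM at day 5, 463.7 and 267.2 at day 14, and 399.7 and 523.2 at day 28. The pattern over the libraries followed that of H2-Ab1, again with day 14 replicate 1 above day 28 replicate 1. The log2 difference was 0.97 ± 0.225 (SE) between days 14 and 5 and 1.31 ± 0.225 between days 28 and 5. Its partner, the I-E alpha chain, is annotated as H2-Ea-ps because the reference strain carries a defective copy, whereas BALB/c mice make I-E. H2-Ea-ps, which is not among the 8, was at 494.4, 435.2 and 367.6 FPKM at day 5, 947.1 and 550.0 at day 14, and 995.8 and 1190.0 at day 28. In each library it had the highest FPKM of the classical chain genes, while H2-Eb1 had more fragments. Undercounting on the reference haplotype can differ between the chains, so their order in abundance is uncertain. It was called higher at day 28 than at day 5 (log2 difference 1.35 ± 0.216 SE, edgeR adjusted p = 0.00511). Between days 14 and 5 the difference of 0.80 ± 0.217 did not pass (edgeR adjusted p = 0.0659), although the libraries did not overlap.

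Cd74, the invariant chain and also a receptor for the cytokine Mif, was the most abundant of the 8 in every library. It was at 1002, 1014 and 828 FPKM at day 5, 2343 and 1411 at day 14, and 2267 and 2708 at day 28. By mean FPKM its rank among all genes was 73 for day 5, 22 for day 14 and 16 for day 28. The log2 difference was 0.997 ± 0.203 (SE) between days 14 and 5, 0.41 ± 0.225 between days 28 and 14 and 1.41 ± 0.203 between days 28 and 5, the last 2.65-fold. Days 14 and 28 overlapped, as they did for H2-Ab1 and H2-Eb1.

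The H2-M editor needs the H2-DMa alpha chain and a beta chain from H2-DMb1 or H2-DMb2. H2-DMa was at 36.6, 35.6 and 33.2 FPKM at day 5, 63.6 and 60.1 at day 14, and 63.7 and 85.6 at day 28. It had the smallest log2 difference of the 8 between days 28 and 5, 1.10 ± 0.132 (SE). H2-DMb1 was at 13, 13.9 and 12.8 FPKM at day 5, 35.1 and 27.9 at day 14, and 43.1 and 48.5 at day 28. Its libraries of the 3 days did not overlap, in the order day 5, day 14, day 28, and its log2 difference between days 28 and 5 was 1.804 ± 0.132. H2-DMb2 was at 11.6, 11.9 and 12.4 FPKM at day 5, 30.3 and 25.1 at day 14, and 26.5 and 35.5 at day 28. Its log2 difference was 1.22 ± 0.176 between days 14 and 5 and 1.38 ± 0.175 between days 28 and 5, with days 14 and 28 overlapping. H2-DMb1 and H2-DMb2 are closely similar neighbours, how reads matching both were shared is not given in the sources used here, and so the split between them is uncertain.

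**Figure D1:**
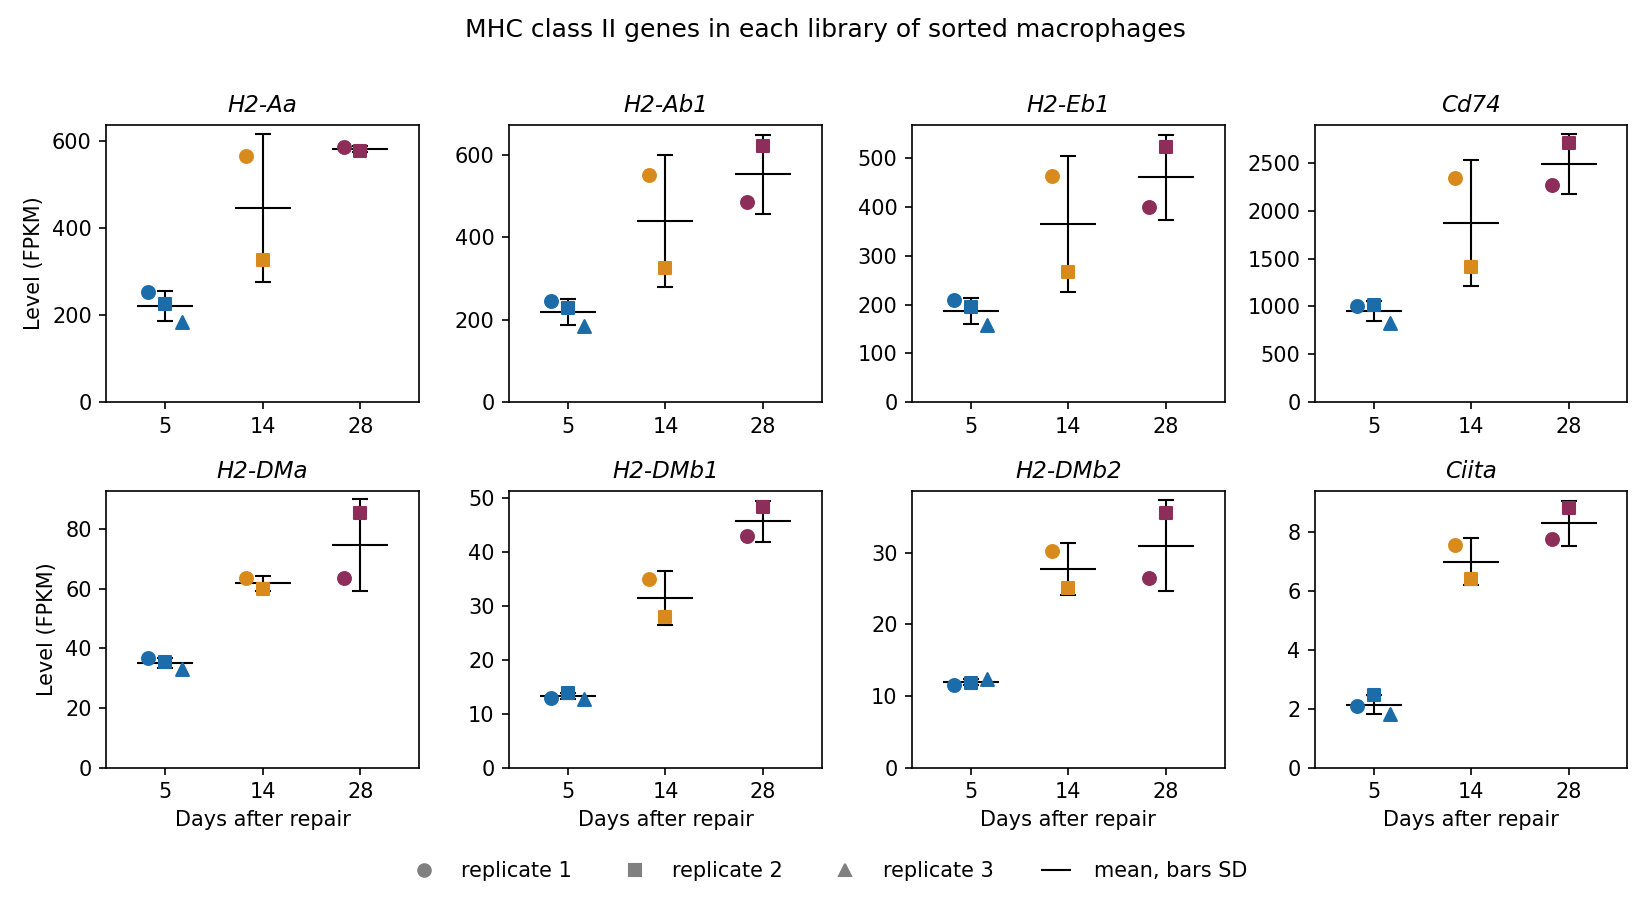
Level in FPKM (linear axis from 0) of each of the 8 class II genes against days after repair, 1 point per library, with marker shape for the replicate number and lines for the mean and SD (n = 3, 2 and 2). All libraries of days 14 and 28 lie above all of day 5 in all 8 panels, and in 4 panels (H2-Ab1, H2-Eb1, Cd74 and H2-DMb2) days 14 and 28 overlap.

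With all 7 libraries, the set of 8 genes differed more between days 5 and 14 than between days 14 and 28. For the median this rested on day 14 replicate 1: without that library the median log2 differences were 0.69 and 0.74. The earlier difference was then still the larger for Ciita (1.60 and 0.356), H2-DMa, H2-DMb1 and H2-DMb2. It was the smaller for H2-Aa (0.576 and 0.835), H2-Ab1, H2-Eb1 and Cd74. Between days 14 and 5, every day 14 library lay above every day 5 library for 8 of 8, as for 21.9% of all genes tested. All 8 were called, where 4.78% of all genes were called in either direction and 2.84% as higher, and nothing is read from that count because these differences were used to choose the genes. Their median log2 difference was 1.02 (range 0.82 to 1.72) against 0.03 over all genes tested. Between days 28 and 5, 8 of 8 were again non-overlapping and higher (26.0% of all genes) and 8 were called (15.2% in either direction, 7.74% higher), with a median of 1.40 (range 1.10 to 1.96) against 0.03. Nothing is read from this count either. From day 14 to day 28, 4 of 8 were non-overlapping and higher (19.3% of all genes), namely H2-Aa, H2-DMa, H2-DMb1 and Ciita. None of the 8 was called by edgeR, where 0.0622% of all genes were called and 0.0311% as higher. At an unadjusted edgeR p under 0.05 the number was 1 of 8, against 12.2% of all genes, and DESeq2 and limma called 0. The median there was 0.34 (range 0.16 to 0.54) against 0.01 over all genes. The 3 comparisons share libraries, so their values are not independent of each other.

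Together the 8 genes took 0.154% to 0.180% of all fragments in the day 5 libraries, 0.443% and 0.288% at day 14, and 0.460% and 0.535% at day 28. The day 14 libraries differed from each other more for some of the genes than for others. Replicate 1 over replicate 2 was 1.74 for H2-Aa, 1.70 for H2-Ab1, 1.74 for H2-Eb1, 1.72 for H2-Ea-ps and 1.66 for Cd74 in FPKM. For H2-DMa it was 1.06, for Ciita 1.18, for H2-DMb2 1.21 and for H2-DMb1 1.26. Over the 7586 genes with a mean of at least 5 FPKM, the middle 90% of these ratios ran from 0.692 to 1.69. The classical chains and Cd74 thus stood at the upper edge of the spread between those libraries, and H2-M and Ciita well inside it. Without day 14 replicate 1 the median log2 difference of the 8 between days 14 and 5 was 0.69, and without replicate 2 it was 1.34. For days 28 and 14 these medians were 0.74 and 0.07, so the size of the later difference depended on which day 14 library was kept.

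The ratios between the 8 within a library separated genes that kept their proportion from those that did not. H2-Ab1 over H2-Aa lay between 0.827 and 1.08 as a ratio of FPKM values, and both extremes were day 28 libraries. H2-Eb1 over H2-Ab1 stayed between 0.819 and 0.860 in all 7 libraries. Cd74 over H2-Aa ranged from 3.86 to 4.69 with the days overlapping. H2-DMb1 over H2-DMa was 0.355 to 0.389 at day 5, 0.552 and 0.464 at day 14, and 0.676 and 0.567 at day 28. The beta chain thus gained on its alpha chain, and for this ratio the 3 days did not overlap. The sum of H2-DMb1 and H2-DMb2 over H2-DMa was 0.671 to 0.758 at day 5, 1.03 and 0.883 at day 14, and 1.09 and 0.982 at day 28. It still depends on how reads were split, since a fragment adds more FPKM to H2-DMb2 than to H2-DMb1. Every later library was above every day 5 library in that sum, and days 14 and 28 overlapped.

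**Figure D2:**
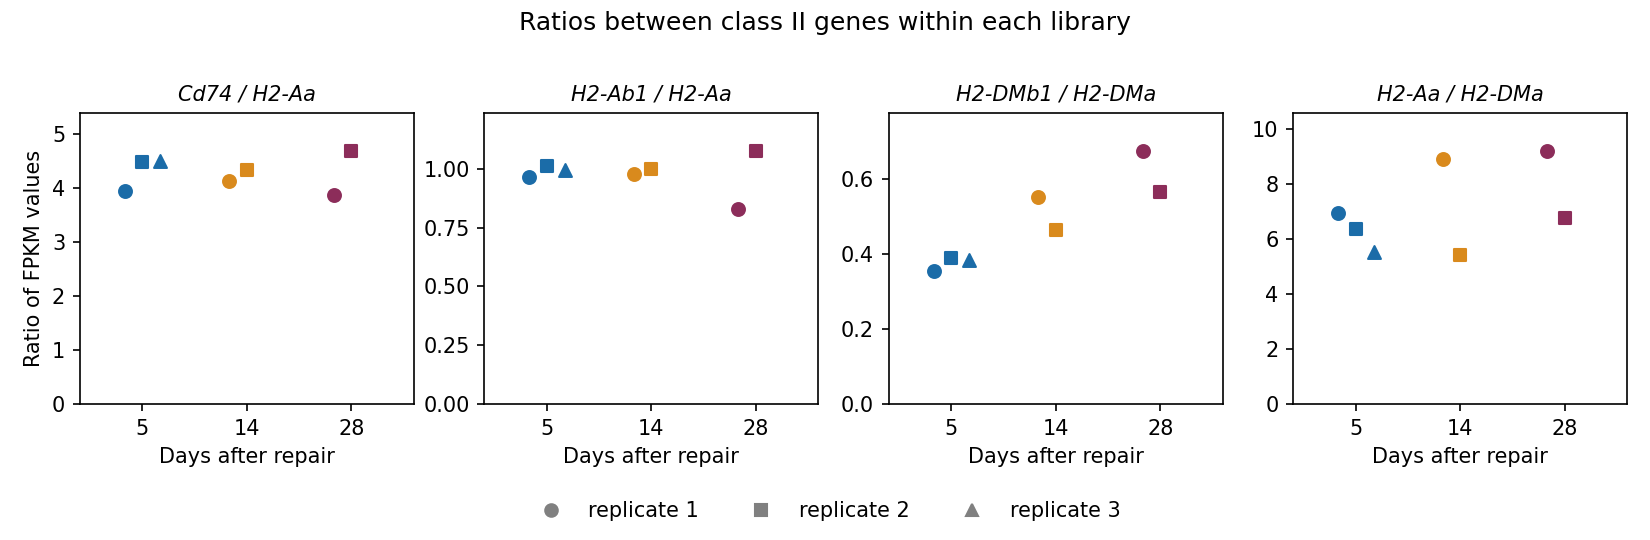
Ratios of FPKM values between pairs of class II genes within each library (linear axes from 0), against days after repair, with marker shape for the replicate number. Cd74 / H2-Aa, H2-Ab1 / H2-Aa and H2-Aa / H2-DMa overlap between days, while H2-DMb1 / H2-DMa is 0.355 to 0.389 at day 5 and at least 0.464 in every later library.

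Of the other class II genes of the segment, H2-Oa and H2-Ob encode H2-O, known as an inhibitor of H2-M that is typical of B cells. H2-Ob was low, with 9, 10 and 13 fragments at day 5, 17 and 12 at day 14 and 60 and 36 at day 28. It was called higher at day 28 than at day 5 (0.20 ± 0.045 against 0.69 ± 0.091 FPKM, log2 difference 1.83 ± 0.521 SE, edgeR adjusted p = 0.0447), a call lost when any library of those days was left out. H2-Oa had 0 to 11 fragments per library and H2-Eb2 0 to 3, and both were below the expression filter.

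The remaining genes of the pathway were read from a list of 45, arranged by role. A value was found for 44, and 42 passed the expression filter. Of these 42, edgeR called 2 higher and 2 lower between days 14 and 5, where 4.78% of all genes tested were called, and 4 higher and 6 lower between days 28 and 5, where 15.2% were called (7.74% higher and 7.51% lower). None was called between days 28 and 14, where 9 had an unadjusted p under 0.05 (12.2% of all genes), DESeq2 called 4 (2.58% of all genes) and limma 0. The median log2 difference of the 42 was -0.05, -0.17 and -0.07 in these comparisons, against 0.03, 0.03 and 0.01 over all genes tested. The list as a whole therefore did not share the direction of the 8 genes. The counts depended on single libraries, as did those of all genes. Between days 14 and 5 no pathway gene was called without day 5 replicate 1, 2 or 3. All genes called then fell from 614 to 63, 106 and 52. For days 28 and 5 the pathway count was 6, 6 and 5 without day 5 replicate 1, 2 and 3. All genes called there fell from 1960 to 820, 916 and 967. The calls of H2-Ea-ps, Irf4, Mif and Ifi30 between days 28 and 5 held without each single library, and that of Lgmn was lost without day 28 replicate 1. The calls of Il4ra, Cd44 and Kat2b were lost when any single library of day 5 or day 28 was left out, and that of Ctsh without either library of day 28 and without day 5 replicate 1 or 3.

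Among the 9 genes of invariant chain cleavage and antigen processing, 1 was called higher and 2 lower between days 28 and 5. Of all genes tested, 7.74% were called higher there and 7.51% lower. Ifi30, which encodes GILT, the thiol reductase that opens disulfide bonds of antigens in the lysosome, was the gene that rose. It was at 348.7, 334.9 and 335.7 FPKM at day 5, 525.4 and 497.6 at day 14, and 503.2 and 531.4 at day 28. It rose between days 5 and 14 (log2 difference 0.60 ± 0.106 SE, edgeR adjusted p = 0.0209) and was also higher at day 28 than at day 5 (0.62 ± 0.105, edgeR adjusted p = 0.00663). Lgmn, the asparaginyl endopeptidase that can start invariant chain cleavage, fell to 0.495 of its day 5 level, from 2005 ± 121 FPKM (SD, n = 3) to 983 ± 51.0 (n = 2). Its log2 difference was -1.01 ± 0.16 SE with edgeR adjusted p = 0.00485, and no day 28 library reached a day 5 library. Ctsh, an aminopeptidase of the lysosome, also fell between days 5 and 28 (log2 difference -0.89 ± 0.187 SE, edgeR adjusted p = 0.0155). Ctsl, cathepsin L, was lower at day 14 than at day 5 (-0.63 ± 0.131 SE, edgeR adjusted p = 0.0342) but not called at day 28 (-0.34 ± 0.130, edgeR adjusted p = 0.108). Ctss, cathepsin S, the main protease for the last step of invariant chain cleavage in antigen-presenting cells, was at 2896 to 3806 FPKM with the days overlapping, and its log2 difference between days 28 and 5 was -0.11 (edgeR adjusted p = 0.645).

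The 10 promoter factors and cofactors include the RFX subunits, the NF-Y subunits and Creb1. Of these, 1 was called between days 28 and 5 (15.2% of all genes tested). This was Kat2b, an acetyltransferase known to act on Ciita, which was lower by a small margin (14.0 ± 0.390 FPKM at day 5 and 10.9 ± 0.586 at day 28, log2 difference -0.37 ± 0.099 SE, edgeR adjusted p = 0.0361). Rfx5, Rfxap and Rfxank were not called in any comparison, with log2 differences of 0.43, 0.20 and -0.16 between days 28 and 5. Nfya, Nfyb and Nfyc were not called either, with -0.08, -0.17 and -0.19.

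Of 13 inducers and repressors of Ciita with a value, 1 was called higher (7.74% of all genes tested) and 1 lower (7.51%) between days 28 and 5. Irf4, an interferon regulatory factor active in lymphocytes, dendritic cells and interleukin-4-treated macrophages, was at 3.21, 3.66 and 3.07 FPKM at day 5, 8.91 and 4.84 at day 14, and 12.6 and 12.6 at day 28. The 3 days did not overlap. Irf4 rose between days 5 and 14 (log2 difference 1.06 ± 0.218 SE, edgeR adjusted p = 0.0337) and was 3.83-fold higher at day 28 than at day 5 (1.94 ± 0.215 SE, edgeR adjusted p = 0.00129). Il4ra, the receptor chain for interleukin-4, fell over the same days (log2 difference -1.05 ± 0.270 SE, edgeR adjusted p = 0.0314, and 0.0556 to 0.172 with a library of either day left out). Ifngr1, Ifngr2, Jak1, Jak2 and Irf1 were not called, with log2 differences between -0.46 and -0.18 between days 28 and 5. None of the 3 genes of class II surface turnover, March1, March8 and Cd83, was called by edgeR in any comparison. Of all genes tested, 4.78% were called between days 14 and 5, 0.0622% between days 28 and 14 and 15.2% between days 28 and 5. Nothing is read from so few genes.

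Among the 5 ligands and coreceptors of Cd74, 2 were called lower between days 28 and 5 (7.51% of all genes tested). Mif, the cytokine that binds Cd74 at the cell surface, was at 516.4, 431.1 and 493.5 FPKM at day 5, 348.8 and 304.7 at day 14, and 235.0 and 242.7 at day 28. The 3 days did not overlap, and Mif fell between days 5 and 14 (log2 difference -0.55 ± 0.122 SE, edgeR adjusted p = 0.0406) and between days 5 and 28 (-0.99 ± 0.124, edgeR adjusted p = 0.00198). Cd44, the signalling partner of Cd74, was lower at day 28 than at day 5 (-0.49 ± 0.129 SE, edgeR adjusted p = 0.0344).

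**Figure D3:**
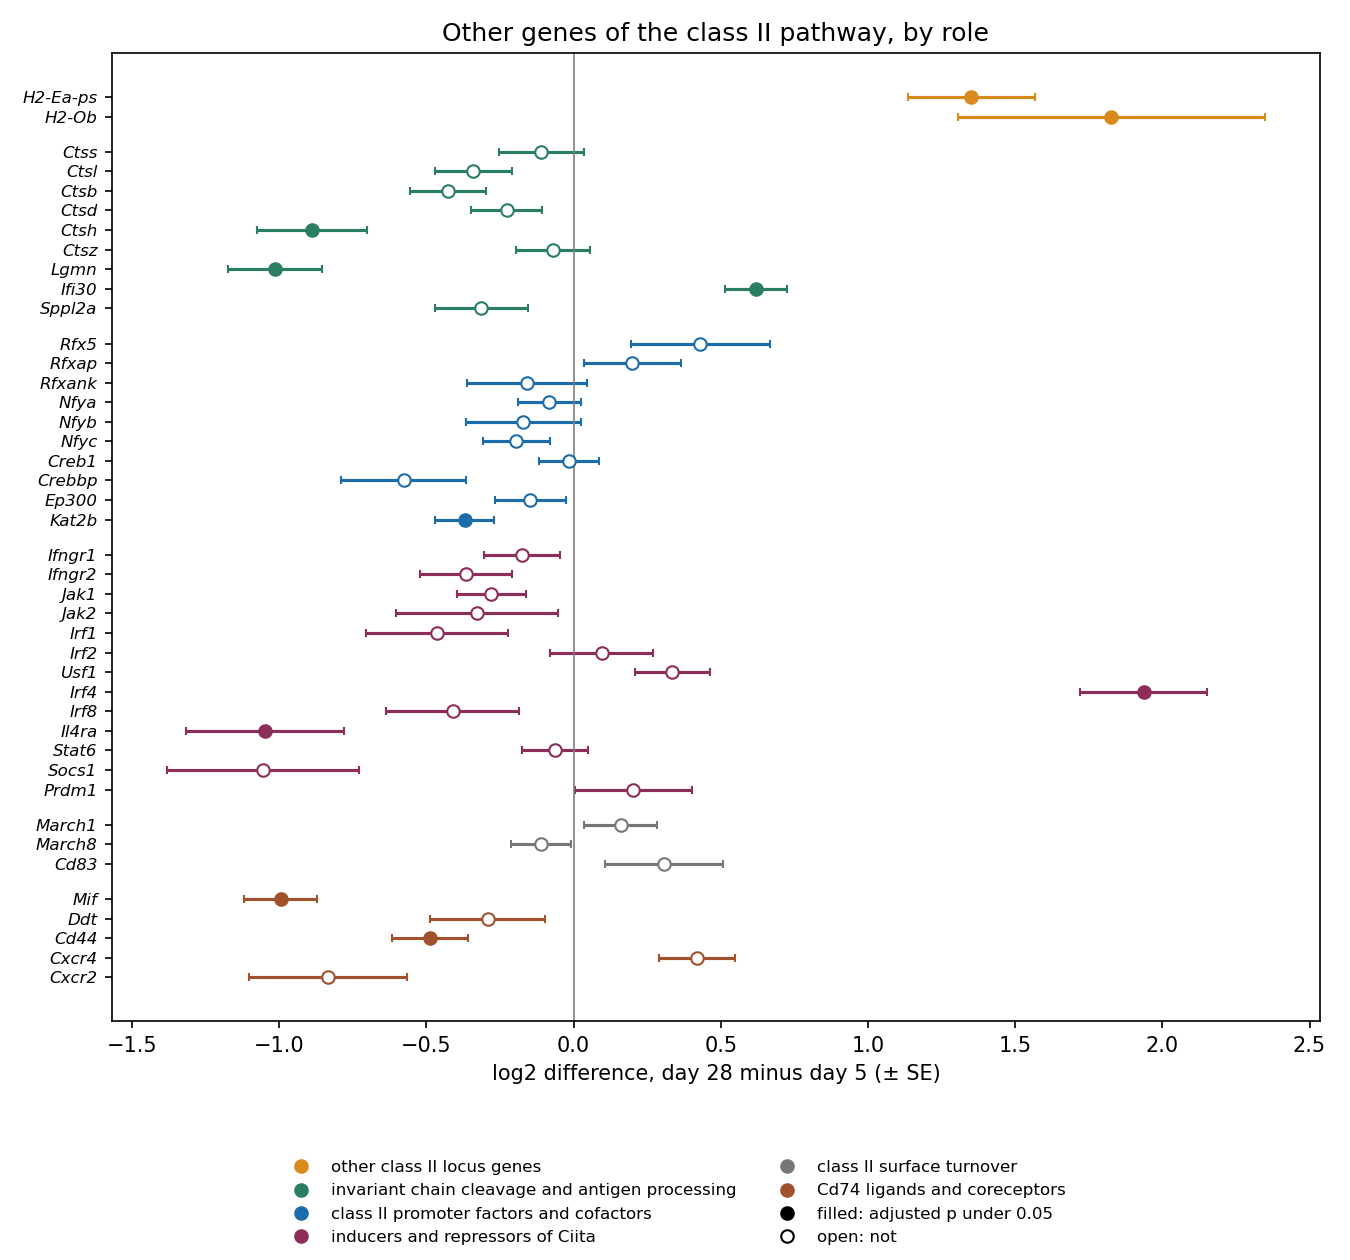
Log2 difference between days 28 and 5 with its SE for the 42 other pathway genes tested, grouped and coloured by role, filled where the edgeR adjusted p was under 0.05. The 4 genes called higher are H2-Ea-ps, H2-Ob, Ifi30 and Irf4, and the 6 called lower are Ctsh, Lgmn, Kat2b, Il4ra, Mif and Cd44.

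MHC class I, which presents peptides from inside the cell, shares the interferon response with class II but has its own transactivator, Nlrc5. Of the 9 class I genes listed, 4 lie within the class II segment. Of the 9, edgeR called 5 lower between days 28 and 5 (7.51% of all genes tested were called lower) and none higher. Nlrc5 was at 10.1, 10.3 and 8.53 FPKM at day 5, 9.81 and 5.29 at day 14, and 4.30 and 4.54 at day 28. It fell between days 5 and 28 (log2 difference -1.11 ± 0.225 SE, edgeR adjusted p = 0.0129), while Ciita was 3.88-fold higher. The heavy chains H2-K1 (-0.76 ± 0.167 SE, edgeR adjusted p = 0.018) and H2-D1 (-0.59 ± 0.148, edgeR adjusted p = 0.0291) fell, as did their light chain B2m (-0.66 ± 0.181, edgeR adjusted p = 0.0398). Tap1, a subunit of the peptide transporter, fell too (-0.85 ± 0.218 SE, edgeR adjusted p = 0.0314). Tap2, Tapbp, Psmb8 and Psmb9 were not called, with log2 differences of -0.33, -0.64, -0.51 and -0.59. For 9 of 9 class I genes every day 28 library was below every day 5 library (25.6% of all genes) and every day 14 library (19.7%). Between days 14 and 5 no class I gene was called by edgeR, DESeq2 or limma (4.78%, 10.6% and 1.96% of all genes), 0 had an unadjusted edgeR p under 0.05 (24.0% of all genes), and the median log2 difference was 0.10. When day 28 was set against day 14, edgeR called 0 while all 9 had an unadjusted p under 0.05 (12.2% of all genes) and DESeq2 called 5 (2.58% of all genes), with a median of -0.75. The median between days 28 and 5 was -0.64, where that of the 8 class II genes was 1.40. The difference between the lists was not tested. The class I calls between days 28 and 5 depended on single libraries, as did those of all genes. Without day 5 replicate 1, 2 or 3, the class I genes called numbered 1, 1 and 2. All genes called then fell from 1960 to 820, 916 and 967. With a library of day 14 or 28 left out that day has 1 library, so calls are not given here. The log2 differences of the 5 genes ranged from -1.19 to -0.51 over all 15 alternatives.

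**Figure D4:**
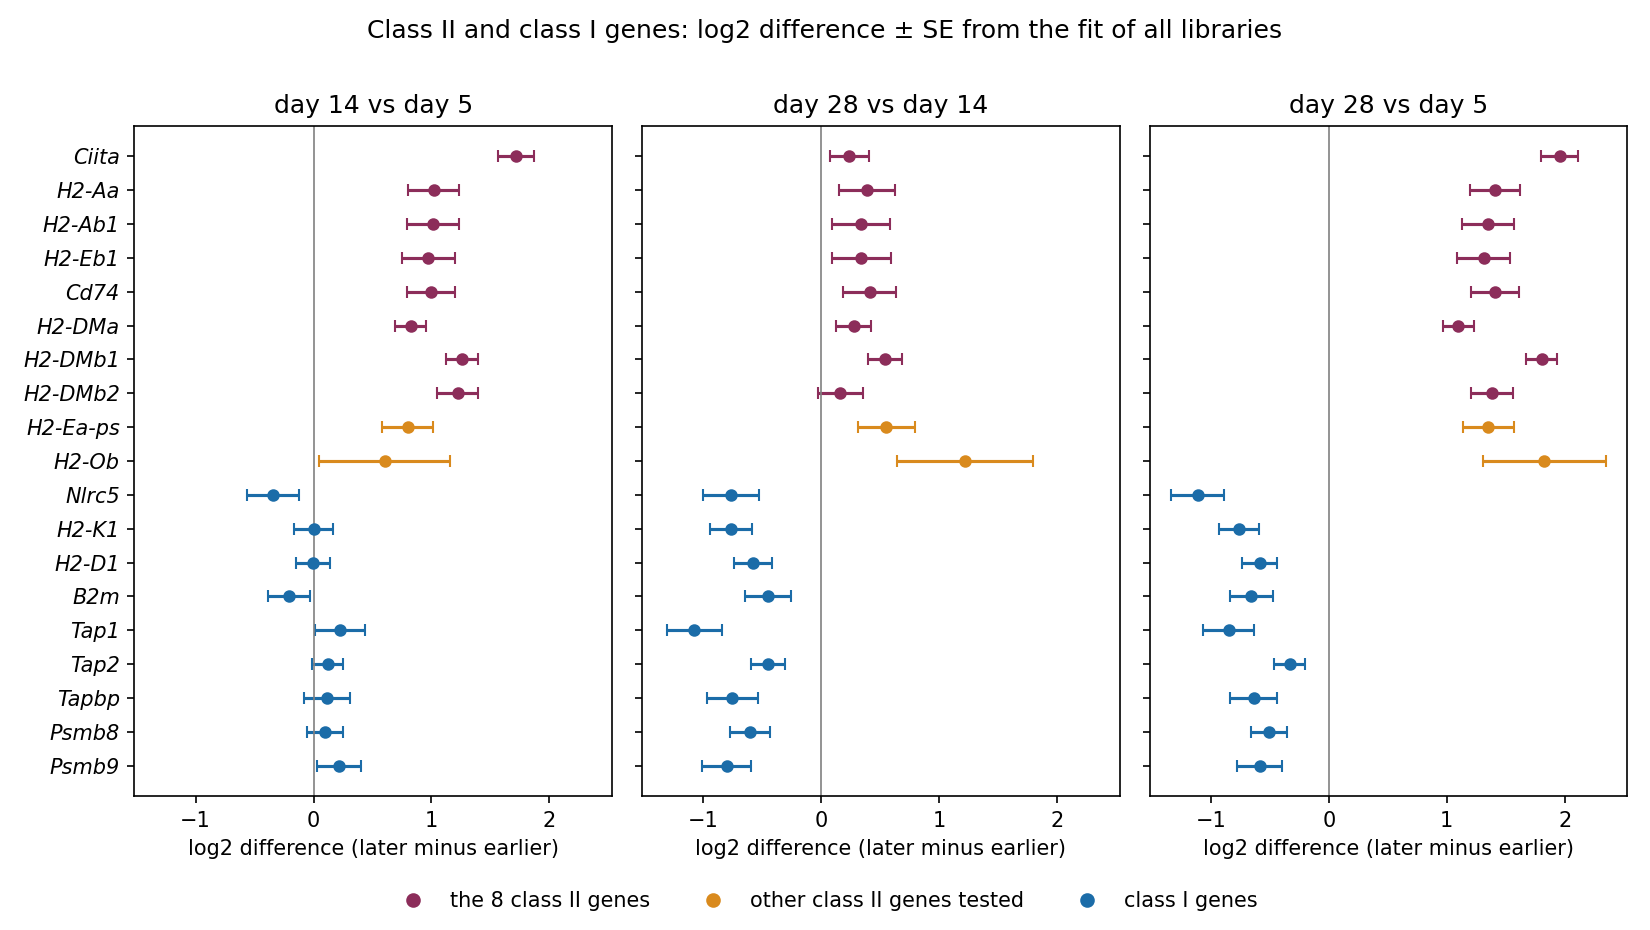
Log2 difference with its SE in each comparison, later day minus earlier day, for the 8 class II genes, the other 2 class II genes tested and the 9 class I genes. The class II genes lie right of 0 in all panels, while the class I genes lie around 0 between days 14 and 5 and left of 0 in both comparisons with day 28.

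These opposite differences were found in neighbours among the listed genes. The stretch from the start of H2-Oa to the end of H2-Ea-ps is 252.3 kb. Its listed genes are, in order, H2-Oa, H2-DMa, H2-DMb2, H2-DMb1, Psmb9, Tap1, Psmb8, Tap2, H2-Ob, H2-Ab1, H2-Aa, H2-Eb1, H2-Eb2 and H2-Ea-ps. Genes outside the lists were not placed. The 4 class I processing genes, from Psmb9 to Tap2, sit between H2-DMb1 and H2-Ob. Their log2 differences between days 28 and 5 were -0.85 to -0.33, of which that of Tap1 was called. Those of the flanking class II genes tested were 1.10 to 1.83.

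**Figure D5:**
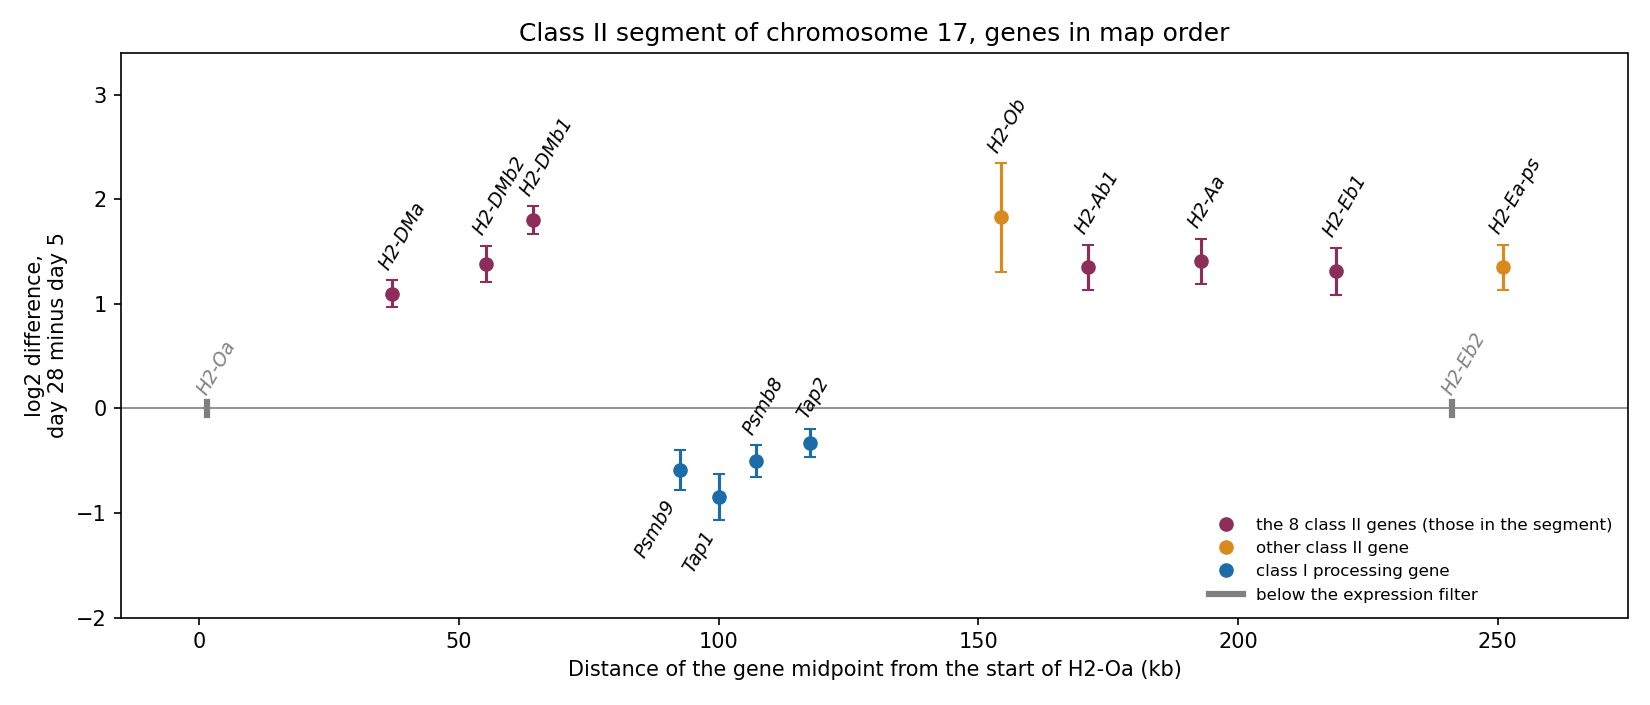
Log2 difference between days 28 and 5 with its SE for the listed genes of the class II segment, against the distance in kb of each gene's midpoint from the start of H2-Oa. The 8 class II genes tested here, 6 of them among the genes described, lie above 0, the 4 class I processing genes lie below 0, and H2-Oa and H2-Eb2 were under the expression filter.

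The genes whose pattern was most like that of the class II set were found by Pearson correlation of log2(FPKM + 1) over the 7 libraries with the mean centred profile of the 8 genes, among 7605 other genes with a mean of at least 5 FPKM. The libraries fall into 3 days, so r mainly follows the differences between days, and it is given as a description. Blnk, an adaptor of B cell receptor and macrophage signalling, came first (r = 0.989), at 32.1 ± 0.417 FPKM (SD, n = 3) at day 5, 58.0 ± 7.92 (n = 2) at day 14 and 73.9 ± 7.40 (n = 2) at day 28. Igf1, a growth factor, followed (r = 0.985) at 15.02 ± 2.03, 27.4 ± 3.30 and 31.1 ± 0.790 FPKM. Plxdc2 (r = 0.985), Axl, a receptor for the clearance of apoptotic cells (r = 0.983), Aplp2 (r = 0.978), Pmepa1 (r = 0.977), Prcp (r = 0.973), Cd81 (r = 0.972), Olfm1 (r = 0.970) and Tns3 (r = 0.970) completed the 10. Axl went from 24.3 ± 3.17 to 61.5 ± 18.3 and 63.6 ± 4.79 FPKM, and the tetraspanin Cd81 from 4.78 ± 0.237 to 19.2 ± 3.20 and 21.0 ± 4.67. H2-Ea-ps, Ifi30 and Irf4 ranked 11, 14 and 18 by the same measure. The most opposite were Slc16a3 (r = -0.989), the lactate exporter, Pkm (r = -0.988), the pyruvate kinase of glycolysis, Phf21a (r = -0.986), Cxcr7 (r = -0.984) and Lima1 (r = -0.983). Slc16a3 went from 249.7 ± 14.3 FPKM at day 5 to 133.3 ± 13.8 at day 14 and 105.3 ± 7.46 at day 28. Among the 8 genes themselves r ran from 0.918 for H2-Aa with H2-DMb2 to 0.999 for H2-Ab1 with H2-Eb1.

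The label of the cells was read from their markers. The 10 macrophage markers, which include Emr1 (F4/80), Cd14, Itgam, Csf1r, Cd68 and Lyz2, summed to 16570 to 19040 FPKM at day 5, 17760 to 22570 at day 14 and 18250 to 18940 at day 28. Lyz2, lysozyme, carried most of that sum, at 10680 to 18380 FPKM. For 6 of the 10 every day 28 library was below every day 5 library (25.6% of all genes), and for 2 it was above (26.0%). Between days 28 and 5, 3 of the 10 were called lower (7.51% of all genes). These were Fcgr1 (log2 difference -1.73), Emr1 (-1.01) and Cd14 (-0.76), the latter pair encoding proteins the sort selected for. The 10 dendritic cell markers summed to 84.9 to 96.7 FPKM at day 5, 165.7 and 226.3 at day 14, and 347.8 to 359.2 at day 28. Of the 10, 2 were called higher between days 28 and 5 (7.74% of all genes). For 6 of the 10 (Zbtb46, Itgax, Cd209a, Xcr1, Ccr7 and Dpp4) every day 28 library was above every day 5 library (26.0% of all genes). For Clec10a it was below (25.6%). Clec10a, a lectin also expressed by macrophages, was the largest part of the sum at day 5 and in day 14 replicate 1, with up to 62.1 FPKM at day 5, 96.1 and 37.4 at day 14, and up to 42.6 at day 28. In day 14 replicate 2 and at day 28 the largest part was Itgax, which encodes CD11c and is also expressed by macrophages: 6.41, 18.3 and 6.55 FPKM at day 5, 34.1 and 170.4 at day 14, and 293.7 and 267.3 at day 28. Its log2 difference between days 28 and 5 was 4.77 ± 0.658 (SE, edgeR adjusted p = 0.00291). Unlike the 8 class II genes, Itgax was lower in replicate 1 than in replicate 2 at day 14. Ccr7, the receptor of migrating dendritic cells, was also called (1.43 ± 0.394, edgeR adjusted p = 0.04). Of the other 7, Batf3 was at 4.94 to 9.73 FPKM and Cd209a at 2.40 to 6.89. Zbtb46 did not exceed 1.62 FPKM, Dpp4 0.895, Xcr1 0.742, Flt3 0.616 and Clec9a 0.341. None of these 7, nor Clec10a, was called in any comparison. The part of dendritic cells in the class II levels was not tested.

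Markers of B cells, which also express class II, were low. The 7 of the list summed to 4.598 to 11.2 FPKM over all libraries, and Pax5 and Blk had at most 3 fragments in any of them. Cd79b made up most of that sum and was not called. It was at 6.41 to 9.26 FPKM at day 5, 10.3 and 6.03 at day 14, and 4.83 and 4.38 at day 28. The T cell markers Cd3e, Cd3d, Cd3g and Cd8a stayed under 0.4 FPKM, while Cd4, the partner of class II on T cells and a gene that macrophages can express, was at 2.30 to 3.63 FPKM at day 5, 13.1 and 7.54 at day 14, and 4.55 and 6.82 at day 28. Cd4 was called higher at day 14 (edgeR adjusted p = 0.0157, 2.84% of all genes) and day 28 (edgeR adjusted p = 0.0471, 7.74%) than at day 5. Lck was at 0 to 0.122 FPKM at day 5, 0.737 and 0.285 at day 14, and 0.11 and 0.194 at day 28. Lck was not called. For Cd4, Lck, Cd3d and Cd3g every day 14 library was above every day 5 library (21.9% of all genes). Cd3d and Cd3g had at most 10 and 5 fragments, and Cd3e and Cd8a overlapped. The 6 T cell markers together reached 14.5 FPKM in day 14 replicate 1 and 8.59 or less in all other libraries. Of the 4 plasmacytoid dendritic cell markers, Bst2 and Tcf4 were called lower at day 28 than at day 5 (7.51% of all genes). Siglech did not exceed 0.478 FPKM, and Ly6d was at or near 0. For Siglech every day 28 library was above every day 5 library (26.0% of all genes). It had 37 and 9 fragments at day 28 against 4, 7 and 0 at day 5 and was not called. The 6 Schwann cell markers summed to at most 0.685 FPKM. The 6 fibroblast markers summed to 28.8 to 73.4 FPKM at day 5, to 220.5 in day 14 replicate 1 and 80.3 in replicate 2, and to 35.1 and 56.7 at day 28, so the day 14 library with the higher class II levels also had the higher collagen levels. The 5 endothelial markers summed to 15.6 to 26.7, 10.6 to 14.4 and 6.03 to 9.70 FPKM at days 5, 14 and 28. Between days 28 and 5, 2 of them (Tek and Vwf, at most 3.31 FPKM) were called higher (7.74% of all genes). Another 2 (Pecam1 and Kdr) were called lower (7.51%). The part of these cell types in the class II levels was not tested.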

How the data were processed

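RNASeq libraries were prepared by the authors from polyA+ RNA and sequenced as single-end reads. Per the submitters' processing notes, cutadapt 1.8, TopHat2 2.0.13, Cuffdiff 2.2.1 and mm10 were used. The authors deposited the expected counts of fragments estimated by Cuffdiff before scaling, a scaled signal (the same fragments after library scaling) and FPKM values. Handling of strand and of reads that map to several places is not given in the sources used here. Of the estimated counts, 0.947% were not whole (tolerance 1e-06), and all were rounded.

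The 8 genes and all lists were chosen with earlier results of these data known. Libraries were grouped by the labelled time point. Counts were fitted in edgeR 4.0.16 (R 4.3.3) with TMM scaling, the filterByExpr filter per day and the quasi-likelihood F test, adjusted after Benjamini-Hochberg over 12858 genes. All 7 libraries entered a single fit without covariates. Members entered the fit, but nothing is read from their calls, since their differences were used to choose them. Pathway genes were named if called with non-overlapping libraries (up to 15, by size of difference), with the 4 other class II locus genes. The 10 most and 5 least alike genes were also named, and those of the class I list. Other genes of the pathway and of the marker lists were named after their values were seen. Spi1 is not analysed here, and some listed genes are not reported here. Detection meant more than 3 fragments, a limit for counting error only. Depth ran from 18027190 to 35247116 fragments. The fit was tested on simulated data. Alternatives were DESeq2 1.42.0, RLE and Cuffdiff scaling, no expression filter, limma 3.58.1 on log2(FPKM + 1) and log2(FPKM + 0.1), only the time points compared, a replicate block, and leaving out each library.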

Additional observations from a re-analysis of the deposited data

How the results depend on the processing

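The 8 class II genes kept the direction of their log2 differences under all 15 alternatives between days 14 and 5 and between days 28 and 5. From day 14 to day 28 they did so too, except H2-DMb2, which ranged from -0.065 to 0.357 when single libraries were left out. With a library of day 14 or 28 left out, that day has 1 library, assumed to vary like the others. The median of the 8 then ranged from 0.69 to 1.34 between days 14 and 5 and from 0.071 to 0.738 between days 28 and 14, both ends of each range without a day 14 library.

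Calls were less stable than differences. Between days 14 and 5, the class II genes called numbered 4 of 8 with limma on log2(FPKM + 1), with limma on log2(FPKM + 0.1) and in a fit of those days only, 0 with the replicate block, and 2 to 8 without 1 library. The pathway genes called numbered 8 with DESeq2, 9 without an expression filter, 1 with either limma fit or those days only, and 0 to 11 without 1 library, and all genes called 1366, 1429, 252 (log2(FPKM + 1)), 277 (log2(FPKM + 0.1)), 315 and 52 to 1728. The highest counts of pathway genes and of all genes came without day 14 replicate 1. The count of 0 pathway genes came when any single day 5 library was left out. Between days 28 and 14, all genes called numbered 332 with DESeq2, 390 without a filter, 0 with limma, the block or those days only, and 0 to 629 without 1 library, the most without day 14 replicate 2. Pathway genes called there were 4 with DESeq2, 3 without a filter and 0 to 5 without 1 library. Between days 28 and 5, DESeq2 called 16 pathway genes (19.3% of all genes), and leaving out 1 library gave 4 to 14 pathway genes and 452 to 2746 of all genes, the fewest without day 28 replicate 1. H2-Ea-ps, Irf4 and Mif kept their day 28 against day 5 call under all 15 alternatives. Their named companions lost it under 1 to 9. The causes were not tested.

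The replicate number was used as a block although nothing shows that it pairs libraries. Deviations of same-numbered libraries correlated at 0.175, 0.045, -0.054, -0.054, 0.084 and 0.025. The deviations of the 2 libraries of day 14 mirror each other, as do those of day 28. The repeated -0.054 is therefore 1 piece of information. With the replicate block, 6 genes were called between days 14 and 5, 0 of them in the pathway or among the 8, and 735 between days 28 and 5, 5 of them in the pathway and 8 of 8 class II genes called. Nothing is read from calls of the 8, whose differences were used to choose them.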
